A study of Mus musculus with 4 samples.

Results

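The transcription factor p53 and 9 genes of its circuit were followed in B16F10 cells, a mouse melanoma line from strain C57BL/6, after knockdown of lamin A/C. The 10 genes were chosen by name, as well-known regulators and targets of p53, with earlier results of these data known. All 10 genes were among the 24421 gene symbols of the count matrix and among the 9150 genes that were tested. They are Trp53, which encodes p53, its inhibitors Mdm2 and Mdm4, and the targets Cdkn1a, Ccng1, Gadd45a, Sesn1, Bbc3, Phlda3 and Zmat3. Cells of 2 libraries carried the empty control vector (shControl) and cells of 2 libraries a vector with a short hairpin RNA against Lmna (shLmna), which encodes lamins A and C. Both groups were transduced with lentivirus, selected with puromycin and grown in the same serum-containing medium, and a single hairpin was used here, so the loss of Lmna and the presence of a hairpin cannot be told apart. Transcripts were counted at their 3′ ends by bulk MARS-seq, which primes at the poly(A) tail. The labels name no DNA-damaging agent for these libraries. In separate assays of the same lines the study asked whether lamin A/C knockdown alters the response to DNA damage, and the p53 circuit is the best-known part of that response.

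In resting cells p53 is kept low by Mdm2, an E3 ubiquitin ligase that marks it for the proteasome, and by Mdm4, a related protein that binds p53 and blocks its activity. Damage to DNA and other stresses free p53 from these inhibitors, mostly at the level of the protein, and p53 then switches on genes that halt the cell cycle, repair DNA, limit growth signals or kill the cell. Mdm2 is itself such a target, which closes a feedback loop. Levels of the Trp53 transcript are therefore not a measure of p53 activity, and the protein was not measured in these libraries.

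Many p53 targets carry a binding site made of a pair of half-sites near their start. RefSeq promoter windows (GRCm38.p6), which run from 250 bases before to 50 bases after an annotated start, were found for 9 of the 10 genes (all but Zmat3), 14 windows in all. The windows were searched for pairs of the 10-base p53 half-site consensus with at most 13 bases between them and at most 1 mismatch over both. The fourth base of each half-site had to be C and the seventh G. The consensus is its own reverse complement, so the search covered both strands. Such a pair was found in 2 of the 14 windows, one of Cdkn1a and one of Ccng1, and in 0.627% of the 32851 windows of all genes. These were also the 2 genes of the set with an edgeR adjusted p under 0.05, and their transcripts moved in opposite directions. The search was added after those values were seen, in genes chosen for their part in the p53 circuit. A link between site and change was therefore not tested, and sites outside the windows were not searched. For each of the 2 genes 1 site is printed here, read 5′ to 3′ along the gene. It is in capitals, with 25 bases to each side. The Cdkn1a window held 2 overlapping matches, of which the one with no spacer is printed; the other spans positions -73 to -42 with 0 mismatches and a spacer of 12 bases. In Cdkn1a this site lies at positions -51 to -32 from the start of the upstream transcript (chr17:29090903-29090972, plus strand, GRCm38.p6). In Ccng1 it lies at positions -195 to -176 (chr11:40755437-40755506, minus strand, GRCm38.p6). Each printed site differs from the consensus at 1 base and has no spacer. A match describes these letters and does not show that p53 was bound.

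Cdkn1a: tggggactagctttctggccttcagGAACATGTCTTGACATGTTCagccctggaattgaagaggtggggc

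Ccng1: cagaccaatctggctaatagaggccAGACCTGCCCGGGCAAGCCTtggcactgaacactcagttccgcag

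The libraries held 2494880 to 3808843 counts, and 11562 to 12395 genes had at least 1 count. Lmna was checked first. Its 2826 and 2684 counts in shControl stood against 331 and 480 in shLmna, and its level fell by 83.6% (log2 fold change -2.61, edgeR adjusted p = 7.93e-06). Of 7 markers of the melanocyte lineage, 6 were well detected and Tyr (tyrosinase) had 1 to 7 counts per library. The summed level of the 7 was 20117 to 24602 CPM (counts divided by library size after TMM scaling). Markers of fibroblasts, immune, endothelial or keratinocyte lineages summed to at most 18.0 CPM per lineage in any library. Of these, Dcn, Lum, Ptprc, Cd3e, Cdh5, Kdr, Krt5 and Krt14 had 0 counts. The immune marker Cd68 had 53 and 54 counts in shControl against 27 and 44 in shLmna. Col1a1, Col1a2, Lyz2 and Pecam1 had 0 to 16 counts per library. TMM is the scaling method of edgeR, and levels are given for each library or as mean ± SD. In such bulk libraries, fewer cells that express a gene and less RNA per cell cannot be told apart.

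In total, 2 of the 10 genes had an adjusted p under 0.05 in the quasi-likelihood test of edgeR, Cdkn1a lower and Ccng1 higher in shLmna. Without shLmna 1 or without shLmna 2 the number was 0. Among all tested genes 9.74% were lower and 5.48% higher by that test. None of the 10 passed the study's full set of limits, which add a log2 fold change over 1 in size and a mean normalized count over 5. That count was 0 with DESeq2 as well, and 4 of the 10 genes had an unadjusted p under 0.05 in edgeR, as did 2750 of all 9150 tested genes. Those limits were passed by 5.88% of all tested genes towards lower and by 1.76% towards higher levels. The 2 shLmna libraries lay below both shControl libraries for 3 of the 10 genes (Trp53, Cdkn1a, Zmat3) and above both for 2 (Mdm4, Ccng1), while that held for 30.6% and 29.5% of all tested genes. The median log2 fold change of the 10 genes was -0.08, with a range of -0.61 to 0.61, and that of all tested genes was -0.00107. The median size of the log2 fold change was 0.152 in the 10 genes and 0.288 in all tested genes.

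**Figure D1:**
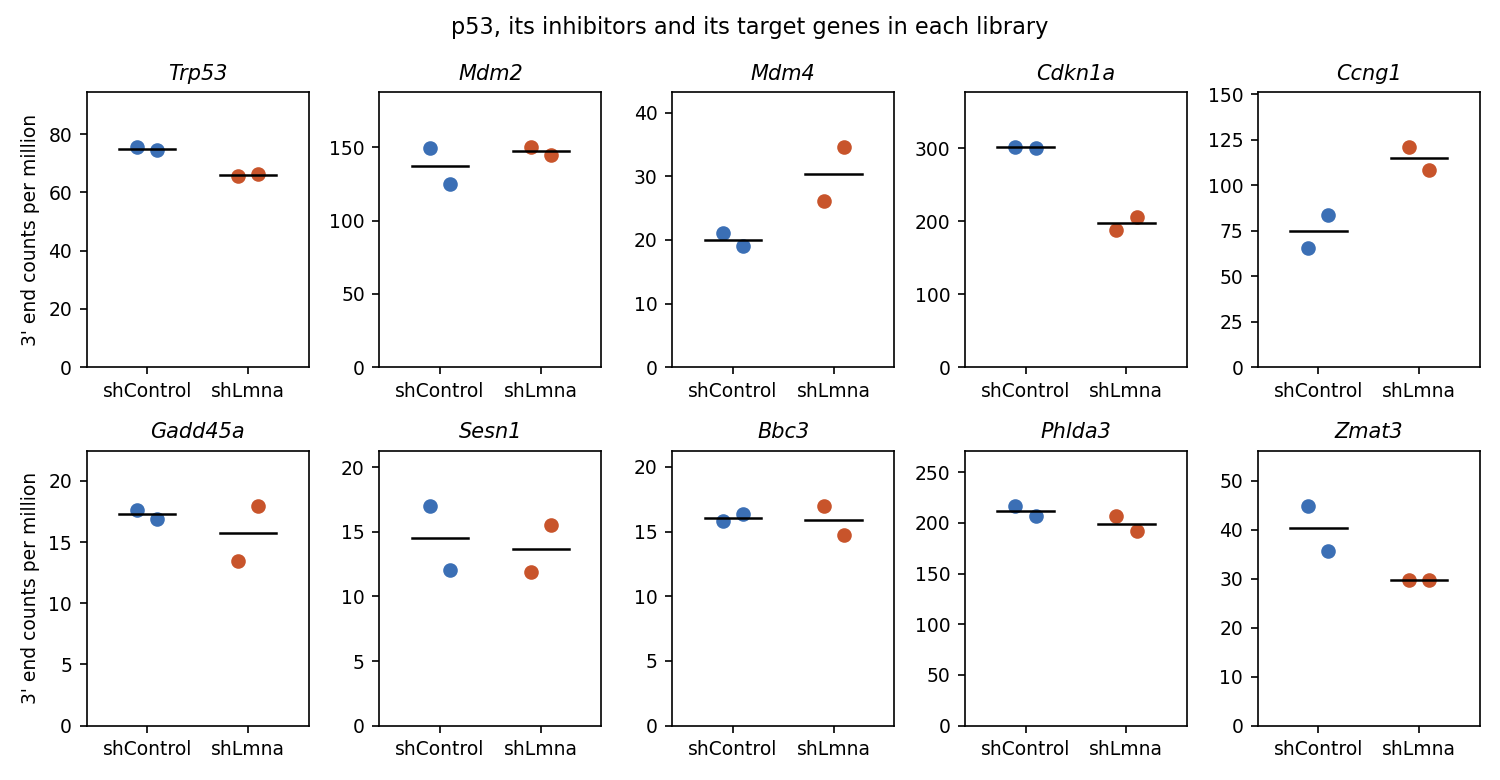
Level of each of the 10 genes in each library, in CPM (vertical axes start at 0 and differ between panels). Points are libraries (2 shControl, 2 shLmna) and bars the mean of a group. Cdkn1a falls from about 301 to 197 CPM and Ccng1 rises from 74.7 to 115 CPM, while the groups overlap for Mdm2, Gadd45a, Sesn1, Bbc3 and Phlda3.

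Trp53 lies on the plus strand of chromosome 11 (69580359 to 69591873, GRCm38). It had 244 and 278 counts in shControl against 166 and 243 in shLmna, which were 75.6 and 74.4 CPM against 65.7 and 66.2 CPM. Both shLmna libraries were lower, by a small margin. The log2 fold change was -0.19 (95% interval -0.49 to 0.12, edgeR adjusted p = 0.399). Of the 31-base stretches of the counted 3′ end, 12.6% also occur in the pseudogene Trp53-ps, and reads from such stretches may not be assigned to 1 gene.

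The inhibitors Mdm2 and Mdm4 were considered next. Mdm2 (chromosome 10, 117688875 to 117710758, minus strand) had 484 and 467 counts in shControl against 380 and 531 in shLmna, at 149.9 and 125 against 150.3 and 145 CPM. The groups overlapped, and the log2 fold change was 0.10 (95% interval -0.19 to 0.40, edgeR adjusted p = 0.654). It became -0.03 without shControl 2. Mdm2 is both the main inhibitor of p53 and one of its targets.

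Mdm4 (chromosome 1, 132959484 to 133030561, minus strand) had fewer counts, 68 and 71 in shControl against 66 and 127 in shLmna. In CPM these were 21.1 and 19.0 against 26.1 and 34.6. Both shLmna libraries were higher, but they also differed from each other more than the shControl libraries did. The log2 fold change was 0.61 (SE 0.225, 95% interval 0.11 to 1.12), with an edgeR adjusted p of 0.1001, over the limit. With limma on the batch-corrected values it was 0.0359, and ran from 0.0359 to 0.468 over 13 alternatives. The size was 0.40 without shLmna 2 and 0.79 without shLmna 1. Of the 31-base stretches of its counted end, 30.0% occur in the pseudogene Mdm4-ps. Within a library there were 0.140 and 0.152 Mdm4 counts per Mdm2 count in shControl and 0.174 and 0.239 in shLmna.

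Cdkn1a encodes p21, an inhibitor of cyclin-dependent kinases and the classical p53 target through which the cell cycle is halted. It lies on the plus strand of chromosome 17 (29090976 to 29100727). The shControl libraries held 974 and 1123 counts of it, the shLmna libraries 477 and 753. The levels of 302 and 301 CPM in shControl stood clear of 189 and 205 CPM in shLmna. In shLmna Cdkn1a fell by 34.6% (log2 fold change -0.61, SE 0.120, 95% interval -0.88 to -0.34, edgeR adjusted p = 0.00853). DESeq2 gave an adjusted p of 0.00127. Without shLmna 1 the edgeR value was 0.102 and without shLmna 2 it was 0.0734, each from a group of 1 library whose spread was taken from the other group, and the adjusted p ran from 0.000113 to 0.102 over the 13 alternatives. With limma on the batch-corrected values the log2 fold change was -0.34. That of Lmna was also smaller in size there, at -1.54 against -2.61 in the main fit. Sizes from limma are therefore not compared with the rest. In all other alternatives the log2 fold change of Cdkn1a stayed between -0.66 and -0.55. GC content of its counted 3′ end was 54.2%, against a median of 46.9% in tested genes.

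Ccng1 encodes cyclin G1, a p53 target that binds the phosphatase PP2A and acts on Mdm2. It lies on the minus strand of chromosome 11 (40748552 to 40755311). The shControl libraries held 212 and 313 counts, the shLmna libraries 306 and 398, or 65.7 and 83.8 CPM against 121 and 108 CPM. The groups did not overlap. Ccng1 was 1.53-fold higher in shLmna (log2 fold change 0.61, SE 0.153, 95% interval 0.27 to 0.95, edgeR adjusted p = 0.0253). The adjusted p was 0.0632 with DESeq2, 0.178 without shLmna 1 and 0.102 without shLmna 2, and ran from 0.000107 to 0.178 over the 13 alternatives. Its counted 3′ end has the lowest GC content of the 10 genes, 33.1%. When fold changes were corrected for GC content, the log2 fold change became 0.91.

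In the main fit Cdkn1a and Ccng1 thus moved by about the same factor in opposite directions. After the GC correction the log2 fold change was -0.57 for Cdkn1a and 0.91 for Ccng1. Within a library, which cancels depth, there were 0.218 and 0.279 Ccng1 counts per Cdkn1a count in shControl and 0.642 and 0.529 in shLmna. Cdkn1a was also lower in relation to the Trp53 transcript, with 3.99 and 4.04 counts per Trp53 count in shControl and 2.87 and 3.10 in shLmna. Mdm2 went the other way, with 1.98 and 1.68 counts per Trp53 count in shControl and 2.29 and 2.19 in shLmna. These ratios are a description, since 2 libraries against 2 give no small p by permutation. A larger log2 fold change in size than that of Cdkn1a was found for 21.2% of all tested genes.

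**Figure D2:**
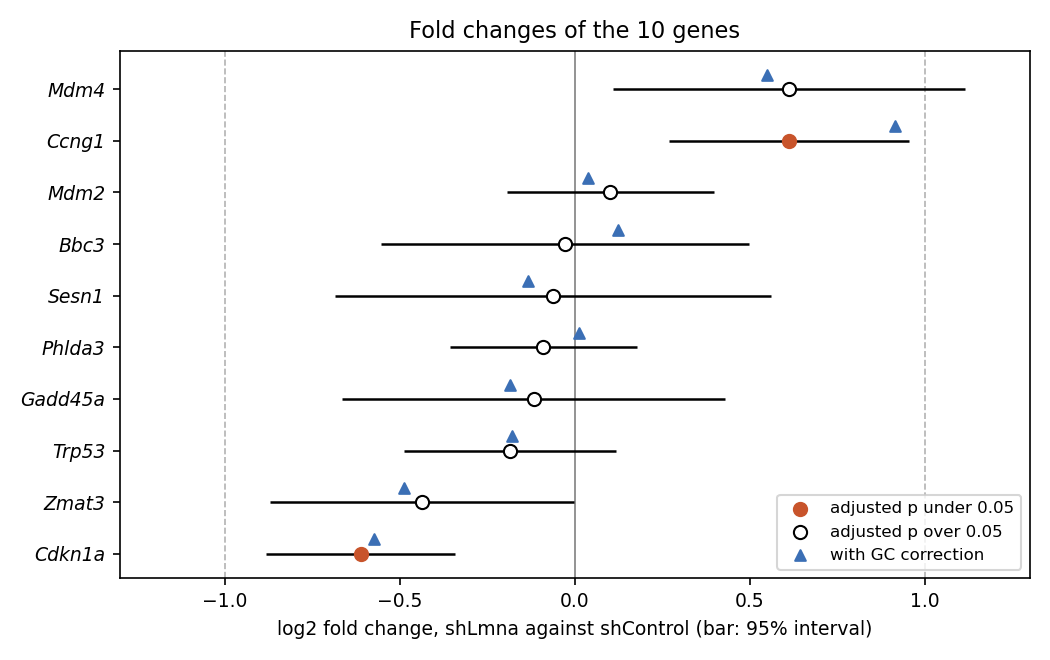
Log2 fold change of the 10 genes in shLmna against shControl, sorted, with 95% intervals from the edgeR test (n = 2 libraries per group). Filled points are genes with an adjusted p under 0.05, triangles the values after correction for GC content, and dashed lines the study's limit of 1. Cdkn1a (-0.61) and Ccng1 (0.61) are the filled points, and the GC correction moves Ccng1 most, to 0.91.

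Gadd45a and Sesn1 serve the response to stress. Gadd45a, a small protein of growth arrest and DNA repair, had 57 and 63 counts in shControl against 34 and 66 in shLmna (17.7 and 16.9 against 13.4 and 18.0 CPM). Sesn1, a sestrin that restrains the growth kinase mTORC1, had 55 and 45 counts against 30 and 57 (17.0 and 12.0 against 11.9 and 15.5 CPM). Both groups overlapped in both genes. Fitted log2 fold changes were -0.12 for Gadd45a (95% interval -0.67 to 0.43, edgeR adjusted p = 0.794) and -0.06 for Sesn1 (95% interval -0.68 to 0.56, edgeR adjusted p = 0.912). Both intervals reach past 0.4 in either direction, so moderate changes were not detectable at this depth. Counting error alone was 17.1% and 18.3% in the library with the fewest counts.

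Bbc3 encodes PUMA, a BH3-only protein that antagonizes BCL2 and triggers apoptosis. Its counts of 51 and 61 in shControl against 43 and 54 in shLmna came to 15.8 and 16.3 against 17.0 and 14.7 CPM. Its log2 fold change was -0.03 (95% interval -0.55 to 0.50, edgeR adjusted p = 0.956). Bbc3 has the highest GC content of the 10 counted ends, 60.8%, and the sign of its change turned after the GC correction, to 0.12.

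Phlda3, a p53 target whose product competes with the kinase AKT for membrane lipids, was the second most abundant of the 10 genes in shControl. It had 701 and 771 counts in shControl against 523 and 703 in shLmna, at 217 and 206 against 207 and 192 CPM. The groups overlapped slightly. On the log2 scale the change was -0.09 and its 95% interval was narrow, -0.36 to 0.18 (edgeR adjusted p = 0.665). A fall of the size measured for Cdkn1a lay outside this interval. The sign turned after the GC correction, to 0.01.

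Zmat3, a zinc finger protein that binds RNA, had 145 and 133 counts in shControl against 75 and 109 in shLmna. In CPM these were 44.9 and 35.6 against 29.7 in each shLmna library. Both shLmna libraries were lower, and the log2 fold change was -0.44 (95% interval -0.87 to -0.00111), with an unadjusted p of 0.0495 and an edgeR adjusted p of 0.165, over the limit. With limma on the batch-corrected values the adjusted p was 0.0364, and it ran from 0.0364 to 0.610 over the 13 alternatives. The log2 fold change was -0.60 without shControl 2 and -0.26 without shControl 1.

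Each gene was counted over a window of the same length at its 3′ end, 1000 bases of transcript and 100 bases beyond. Whether each window covers the main 3′ end of its gene was not tested. Of the 31-base stretches, 30.0% in Mdm4 and 12.6% in Trp53 also occur in pseudogenes. The order below therefore describes the counted ends and may differ from that of the transcripts. In shControl the order by mean CPM was Cdkn1a, Phlda3, Mdm2, Trp53, Ccng1, Zmat3, Mdm4, Gadd45a, Bbc3 and Sesn1. Trp53 and Ccng1 overlapped, and Sesn1 overlapped both Bbc3 and Gadd45a. In shLmna Phlda3 (199 ± 10.8 CPM) and Cdkn1a (197 ± 11.7 CPM) overlapped at the top of the order (SD, n = 2). Ccng1 (115 ± 8.90 CPM) stood above Trp53 (65.9 ± 0.390 CPM), and Mdm4 (30.4 ± 6.01 CPM) drew level with Zmat3 (29.7 ± 0.0244 CPM). Bbc3, Gadd45a and Sesn1 overlapped at the bottom, between 11.9 and 18.0 CPM.

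**Figure D3:**
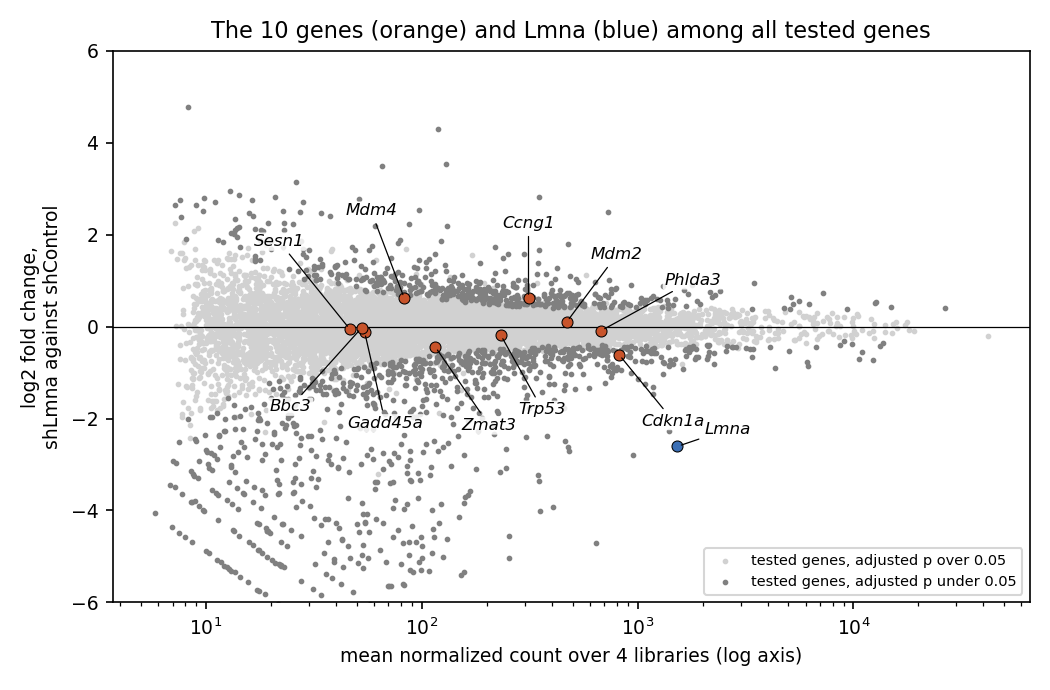
Log2 fold change in shLmna against shControl over the mean normalized count (log axis) for all 9150 tested genes. Dark grey points have an edgeR adjusted p under 0.05. The 10 genes (orange) lie between -0.61 and 0.61, close to the axis, while Lmna (blue) is at -2.61, and 21 genes lie beyond the axis limits of -6 and 6.

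In addition, 30 regulators of p53 and 34 further targets were read from the same fit. These lists were drawn up with earlier results of these data known. Their counts are therefore a description and do not test whether the pathway moved. Of the regulators 21 were tested. By an edgeR adjusted p under 0.05, 5 were lower and 1 was higher in shLmna, and 15 did not pass. By the same test 9.74% of all tested genes were lower and 5.48% higher. The full limits of the study were passed by 3 lower genes and 1 higher gene, against 5.88% lower and 1.76% higher of all tested genes. The median log2 fold change of the regulators was 0.10. The lower genes were Yy1, Rpl5, Setd7, Ep300 and Daxx, and Atm was higher.

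Yy1 encodes a zinc finger factor that also helps Mdm2 to ubiquitinate p53. It had 182 and 307 counts in shControl against 8 and 14 in shLmna (log2 fold change -4.28, edgeR adjusted p = 2.01e-05). Rpl5, a ribosomal protein that can bind and inhibit Mdm2, had 91 and 150 against 12 and 8 counts, which gave a log2 fold change of -3.37 (adjusted p = 0.000261, edgeR). Rpl11, its partner in that role, did not pass, with 6028 and 6512 against 5044 and 7494 counts and a log2 fold change of 0.16. In shControl Rpl5 had a mean of only 34.2 CPM, against 1805 CPM for Rpl11. Whether the counted window covers the main 3′ end of Rpl5 was not tested, so its fall is stated for the counted end only. Setd7, a lysine methyltransferase that acts on p53, had 220 and 259 against 25 and 49 counts, which gave a log2 fold change of -2.54 (adjusted p = 3.61e-05, edgeR). Whether the counted windows cover the main 3′ ends of Yy1 and Setd7 was not tested either. Their falls are also stated for the counted ends only, and every alternative used the same windows. GC contents of the counted ends of Yy1, Rpl5 and Setd7 were 48.7%, 37.3% and 38.5%. The falls of Yy1, Rpl5 and Setd7 had an adjusted p under 0.05 in all 13 alternatives.

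The falls of the coactivator Ep300 and of Daxx, a chaperone that binds Mdm2, were smaller. Ep300 had 103 and 127 counts in shControl against 36 and 70 in shLmna, which gave a log2 fold change of -0.97 (adjusted p = 0.0185, edgeR). Its counted end has a GC content of 30.9%, and after the GC correction the log2 fold change was -0.51 with an adjusted p of 0.151. Its adjusted p was 0.113 in DESeq2, 0.139 without shLmna 1 and 0.0568 without shLmna 2, and over the alternatives it ran from 0.000815 to 0.151. Daxx had 135 and 171 against 65 and 107 counts, which gave a log2 fold change of -0.67 (adjusted p = 0.0364, edgeR), with an adjusted p of 0.240 in DESeq2. Leaving out shControl 2 made it 0.0829, shLmna 1 0.217 and shLmna 2 0.139, and it ran from 0.00572 to 0.240. Atm, the kinase that signals DNA breaks to p53, had 32 and 62 against 65 and 103 counts, which gave a log2 fold change of 1.01 (adjusted p = 0.0331, edgeR). Its adjusted p was 0.164 in DESeq2, 0.0626 without shControl 1, 0.101 without shLmna 1 and 0.176 without shLmna 2, and ran from 0.00109 to 0.176. Chek2, the kinase that acts after Atm, had 187 and 191 counts in shControl against 117 and 129 in shLmna, and missed the limit at -0.43 on the log2 scale (adjusted p = 0.145, edgeR).

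Below the filter on low counts were 9 regulators, namely Cdkn2a, Trp53bp1, Crebbp, Sirt1, Hipk2, Cop1 (listed as Rfwd2), Trim24, Trp63 and Trp73. Cdkn2a encodes Arf, an inhibitor of Mdm2, and the cell cycle inhibitor p16. It had 0 counts in all 4 libraries, as did the p53 relatives Trp63 and Trp73, which allows a level of up to 0.803 to 1.19 CPM in a library (3 counts). Counting error alone is covered by this limit.

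Of the 34 further targets 24 were tested, and 2 were lower and 2 higher with an edgeR adjusted p under 0.05. By the same test 9.74% of all tested genes were lower and 5.48% higher. The full limits of the study were passed by 1 lower and 2 higher genes, against 5.88% lower and 1.76% higher of all tested genes. The median log2 fold change of the further targets was -0.00935. Trp53inp1, a nuclear protein that promotes p53 activity, rose from 1 and 15 counts in shControl to 40 and 52 in shLmna, which gave a log2 fold change of 2.70 (adjusted p = 0.0117, edgeR). It was 1.89 without shControl 1 and 5.42 without shControl 2, so its size rests on the shControl libraries. The adjusted p was 0.0882 without shLmna 1 and 0.121 without shLmna 2, and ran from 5.45e-10 to 0.121.

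Rrm2b, the p53-inducible subunit of ribonucleotide reductase, had 1 and 10 counts against 19 and 25, which gave a log2 fold change of 2.16 (adjusted p = 0.0410, edgeR). Its adjusted p was 0.200 in DESeq2, 0.0723 without shControl 1, 0.211 without shLmna 1 and 0.228 without shLmna 2, and ran from 0.000544 to 0.228, while its size moved to 1.40 without shControl 1 and to 4.35 without shControl 2. The counted ends of Trp53inp1 and Rrm2b have GC contents of 33.7% and 31.3%, near that of Ccng1. The part of GC content in these results was not tested beyond the correction, after which the log2 fold changes were 2.97 and 2.61.

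Zfp365 fell from 22 and 45 counts to 0 and 4 (log2 fold change -3.82, edgeR adjusted p = 0.00576), and its fitted size was -7.91 without shLmna 2 and -3.08 without shLmna 1. Gtse1, which moves p53 out of the nucleus in dividing cells, fell from 771 and 927 to 422 and 676 counts, which gave a log2 fold change of -0.47 (adjusted p = 0.0282, edgeR). That adjusted p was 0.236 without shLmna 1 and 0.131 without shLmna 2, and ran from 0.00403 to 0.236.

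The remaining 20 tested targets did not pass. Bax, the pore-forming effector of apoptosis, had 1987 and 2046 counts in shControl against 1476 and 1790 in shLmna, and its log2 fold change was -0.12 (95% interval -0.42 to 0.18, edgeR adjusted p = 0.595). Apaf1, which builds the apoptosome, (100 and 103 against 122 and 153 counts) missed the limit narrowly, at 0.62 on the log2 scale and an adjusted p of 0.0508 in edgeR. It is named because of that value. Ppm1d, the phosphatase that switches p53 signalling off, had 68 and 99 against 36 and 73 counts, with which gave a log2 fold change of -0.46 (adjusted p = 0.249, edgeR). Below the filter were Aen, Fas, Pmaip1, Perp, Sesn2, Btg2, Eda2r, Gdf15, Pidd1 and Tap1. Fas had 0 counts in all libraries, Pmaip1 had 1 count over all 4, and Gdf15 had 3 and 7 counts in shControl against 0 and 2 in shLmna, too few to compare at this depth.

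**Figure D4:**
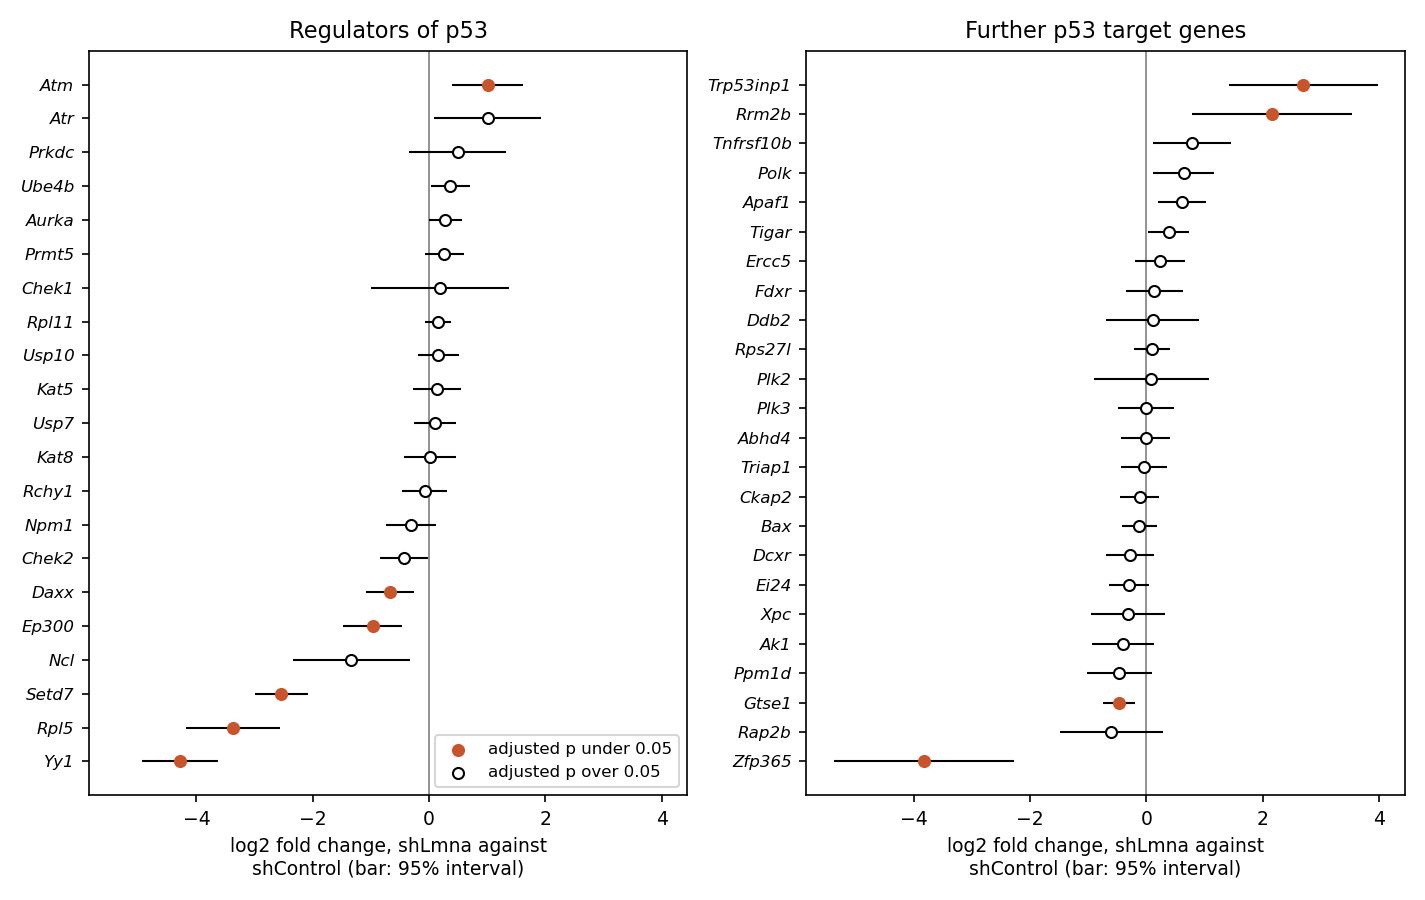
Log2 fold change with 95% interval for the 21 tested regulators of p53 (left) and the 24 further tested targets (right) in shLmna against shControl, n = 2 libraries per group. Filled points have an edgeR adjusted p under 0.05. Values run from -4.28 (Yy1) to 1.01 (Atm) on the left and from -3.82 (Zfp365) to 2.70 (Trp53inp1) on the right.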

How the data were processed

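RNA of shControl and shLmna B16F10 cells was profiled by bulk MARS-seq, 2 libraries per group. The authors trimmed reads with Cutadapt, aligned them to mm10 with STAR 2.4.2a and counted them with HTSeq in a window at each RefSeq gene's 3′ end, 1000 bases of transcript plus 100 bases downstream. They deposited raw counts per gene symbol, which were used for every main test. Per the study's methods, UMIs were counted with a modified HTSeq-count once duplicates had been marked. The matrix exceeded the counts recovered from the signal table by a ratio of 1.08 to 1.09 in each library, and the sources used here do not say which step lies between them. They also deposited a signal, the count divided by a DESeq2 size factor, and log2 values corrected for batch with ComBat, whose batches are not named. The signal values were whole multiples of 1 step per library in 100% of cases (tolerance 0.1), and those whole counts served as an alternative. The authors' own p-values and directions were not used.

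Genes were filtered by filterByExpr and compared by quasi-likelihood F tests in edgeR 4.0.16 (R 4.3.3, TMM, two-sided, group as the one term), adjusted by Benjamini-Hochberg over 9150 genes. SEs were derived from the F statistic. Alternatives were RLE and upper quartile scaling, no filter, DESeq2 1.42.0, limma 3.58.1 on the log2 values, the recovered counts, a replicate block, a GC correction (a loess curve of span 0.4 on the GC content of the last 1000 bases of 1 GENCODE M21 transcript per gene, GRCm38), both together, and leaving out each library. GC content was known for 96.3% of tested genes. The edgeR, DESeq2 and limma fits were run on simulated counts with 200 changed genes, while 1392 genes passed the edgeR test in these data. Batch correction was not simulated, so that run does not cover limma on the batch-corrected values.

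Replicate libraries differed by a chi-square of 6.96 per degree of freedom in shControl and 3.91 in shLmna, more than sampling noise. They were counted as separate samples, but this check cannot show that they came from separate cultures. Nothing says that they came from separate transductions, so p-values measure spread between libraries. Depth was 2494880 to 3808843 counts per library. The 95% intervals come from the edgeR fit and, like its p-values, include spread between libraries. Upper limits on the level of genes without counts cover counting error only. Genes named were all members, Lmna, list genes with an adjusted p under 0.05 10 list genes set by name and, in lists, the genes under the filter. Rpl11 and Apaf1 were added after their values were seen. The members and lists were chosen with earlier results of these data known. The p53 site search was added after the values were seen. Symbols of all 64 list genes were found in the matrix, 1 of them (Cop1) under an older symbol.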

Additional observations from a re-analysis of the deposited data

How the results depend on the processing

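Cdkn1a was lower and Ccng1 higher in all 13 alternatives. The number of the 10 genes with an adjusted p under 0.05 was 1 with DESeq2, 4 with limma on the batch-corrected values and 0 to 2 when 1 library was left out, and 2 in the other alternatives. Over all tested genes that number was 810 with DESeq2, 3774 with limma on the batch-corrected values and 503 to 2104 without 1 library. For regulators it was 3, 11 and 3 to 8 in the same order, and for further targets 12 with limma and 1 to 4 without 1 library. The cause of these shifts was not tested, but the lowest numbers for the 10 genes and for all genes came from fits with a single shLmna library (503 without shLmna 2, 555 without shLmna 1), and among the fits without 1 library the highest for all genes came without shControl 1 (2104). Genes near 0 changed sign. Bbc3 was 0.0025 with upper quartile scaling, 0.12 after the GC correction alone or with the replicate block, 0.015 with recovered counts, 0.0043 with limma and -0.12 to 0.095 without 1 library. Phlda3 was 0.012 after the GC correction and 0.013 with the block as well. Without 1 library, Mdm2 ranged from -0.028 to 0.24, Gadd45a from -0.35 to 0.065 and Sesn1 from -0.30 to 0.21. Same-numbered libraries did not deviate together (correlation 0.013 across 9150 genes, which are not replicates), so the numbers were not taken as pairs. The replicate block gave 2 of the 10 genes, 2072 of all genes, 9 regulators and 5 further targets, with the call of no member changed. Depth limits Bbc3, Sesn1, Gadd45a and Mdm4, with 30 to 127 counts per library.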
